A study of Mus musculus with 4 samples.

Results

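The genes described here are the tumour necrosis factor (TNF) superfamily ligands, their receptors, and the proteins that carry the receptors' signals. Those proteins are the TRAF, TRADD, FADD and RIP kinase proteins. A rule on gene symbols chose the genes, with earlier results of these data known. The rule took 50 of the 24421 genes in the table, made up of 15 ligands, 22 receptors, 7 Traf genes, 2 death-domain adaptors and 4 Rip kinases. RNA was measured in lymphatic endothelial cells, which form the walls of lymph vessels, sorted out of mouse lung on postnatal day 0 as cells without the leukocyte protein CD45 and with the endothelial protein CD31 and GFP. All animals carried Prox1-CreER, an inducible Cre recombinase under the control of a gene active in lymphatic endothelium, and Rosa26-mTmG, a reporter that turns green where Cre has acted. Jun-Ctrl animals were Prox1-CreER;Junf/+;Rosa26-mTmG, with 1 floxed Jun allele that Cre could also remove. Jun-cKO animals were Prox1-CreER;Junf/f;Rosa26-mTmG, with both alleles floxed. There were 2 libraries per genotype (n = 2 in every value below), named replicate 1 and replicate 2, and 3 to 5 mice were pooled per group. Nothing in the labels ties the libraries of a group to separate animals, so the p-values measure how these libraries vary, and that variation may be technical.

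The Jun-Ctrl libraries held 16037416 and 6483514 counts, against 15558476 and 6911821 for Jun-cKO. Of 11 tested lymphatic endothelial markers, 4 rose and 1, Flt4, fell, where 19.0% and 22.5% of all tested genes did so. Their list summed to 14990 and 13732 CPM (counts scaled by library size and the TMM method) in Jun-Ctrl against 19408 and 19985 CPM. Lyve1 alone made up 6402 and 5971 CPM against 8641 and 10260 CPM. Prox1 was not called, at 39.3 and 43.6 CPM against 34.2 and 31.9 CPM. The lymphatic chemokine gene Ccl21a had 0 counts in every library. Jun stood at 472 and 433 CPM in Jun-Ctrl against 524 and 475 CPM in Jun-cKO. The difference of 0.14 on the log2 scale (SE 0.12) was not called by edgeR (Benjamini-Hochberg adjusted p = 0.353), with a 95% interval of 0.935 to 1.302 around the fold. With a correction for GC content it was 0.41 (adjusted p = 0.00327, in a range of 0.00327 to 0.813 over 14 alternatives). The targeted transcript was thus not lower in the libraries labelled Jun-cKO, which are called Jun-cKO-labelled below, and every direction rests on that label. In bulk RNA, fewer cells of a type and less RNA per cell cannot be told apart.

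TNF superfamily ligands are mostly trimeric membrane proteins, and many of them can also be shed. Their receptors fall into those with an intracellular death domain, which recruits TRADD or FADD and RIP kinases and can lead to caspase activation or necroptosis, those that bind TRAF proteins directly, and decoys that bind ligand without passing on a signal. Most of these routes lead to NF-kappaB and to JNK, the kinase that phosphorylates Jun. In endothelium TNF is a known inducer of adhesion molecules and chemokines, and lymphotoxin and RANK signalling are known for their part in lymph node development.

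Sequence upstream of the start of transcription is shown for Ltb, Fas and Tnfsf14, whose windows held a searched motif, and for a receptor that rose and a receptor and an adaptor that fell. RefSeq promoter windows (GRCm38.p6, 250 bases before to 50 after each start) matched 40 of the 50 genes by symbol, in 45 windows. The AP-1 motif TGANTCA, which Jun-containing dimers bind, and a 10-base NF-kappaB consensus were searched on both strands. The AP-1 motif was in 7 of the 45 windows (15.6%), against 7.81% of all 32851 windows, and these belonged to Tnfrsf8, Tnfrsf9, Tnfsf13b, Tnfsf13, Tnfsf14 and Fas. The windows of Tnfsf13b overlap and hold the same site, which is thus counted more than once. By gene, 6 of the 40 matched members held the motif, against 8.97% of all 27025 genes with a window. None of the 8 matched genes called higher or lower below held it, which says only that these letters are not in the window. The NF-kappaB consensus was in 1 window, that of Ltb, against 0.411% of all windows. A match is a run of letters and not a measured binding site. Each stretch is written 5′ to 3′ on the gene's own strand, with the matched letters in capitals. The match begins 87 bases before the start of Ltb, where the consensus reads on the opposite strand, 211 bases before that of Fas and 160 bases before that of Tnfsf14.
Ltb (chr17:35194395-35194454, plus strand): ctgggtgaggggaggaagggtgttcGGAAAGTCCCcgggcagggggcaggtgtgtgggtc
Fas (chr19:34290423-34290479, plus strand): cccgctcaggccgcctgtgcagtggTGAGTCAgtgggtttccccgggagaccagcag
Tnfsf14 (chr17:57194310-57194366, minus strand): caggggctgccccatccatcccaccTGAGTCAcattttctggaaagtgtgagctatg
The 100 bases before the start are given for Tnfrsf1a, Tnfrsf12a and Traf1, chosen after their values were seen, and hold no capitals because they hold no match.
Tnfrsf1a (chr6:125349623-125349722, plus strand): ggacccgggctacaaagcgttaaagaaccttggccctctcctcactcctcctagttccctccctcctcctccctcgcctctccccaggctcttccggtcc
Tnfrsf12a (chr17:23677450-23677549, minus strand): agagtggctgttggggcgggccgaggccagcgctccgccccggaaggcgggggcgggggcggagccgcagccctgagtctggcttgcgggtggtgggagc
Traf1 (chr2:34961773-34961872, minus strand): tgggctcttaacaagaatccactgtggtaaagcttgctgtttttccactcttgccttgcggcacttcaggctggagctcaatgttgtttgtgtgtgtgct

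Expression of the family was led by a few receptors, while most ligands were at or near the detection limit. A count above 0 was seen for 48 of the 50 genes, the exceptions being Tnfsf4 and Tnfrsf17, and 32 passed the filter on low counts. The other 18 had at most 31 counts over the 4 libraries and were not tested. Of these 18, 10 had counts in Jun-Ctrl and 0 in both Jun-cKO-labelled libraries, while the reverse was seen for 0. Untested genes as a whole leaned the same way. Of 4107 untested genes with 1 to 31 counts, 43.0% had counts in Jun-Ctrl alone and 9.30% in the Jun-cKO-labelled libraries alone, against 62.5% and 0% of the 16 untested members with a count. Per kilobase of gene length, the order of the levels differed by group. In Jun-Ctrl, Tnfrsf12a, the TWEAK receptor Fn14, had the highest mean, 52.1 CPM per kilobase, above Ltbr, the lymphotoxin beta receptor (35.3), and Tnfrsf11a, the receptor RANK (28.5). Tnfrsf1a, the main death-domain receptor for TNF, stood there at 14.9, between Traf7 (16.1) and Traf5 (13.7). In the Jun-cKO-labelled libraries Tnfrsf11a came first at 34.5 CPM per kilobase, then Ltbr at 30.7, Tnfrsf1a at 28.8 and Tnfrsf12a at 24.6, and each overlapped with its neighbour in this order. Traf5 followed at 13.8. The most abundant ligand, Tnfsf12, which encodes TWEAK, had a mean over all libraries of 8.02 CPM per kilobase, and the next, Tnf, at 1.85. RNA was amplified before sequencing, so levels per length are approximate.

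**Figure D1:**
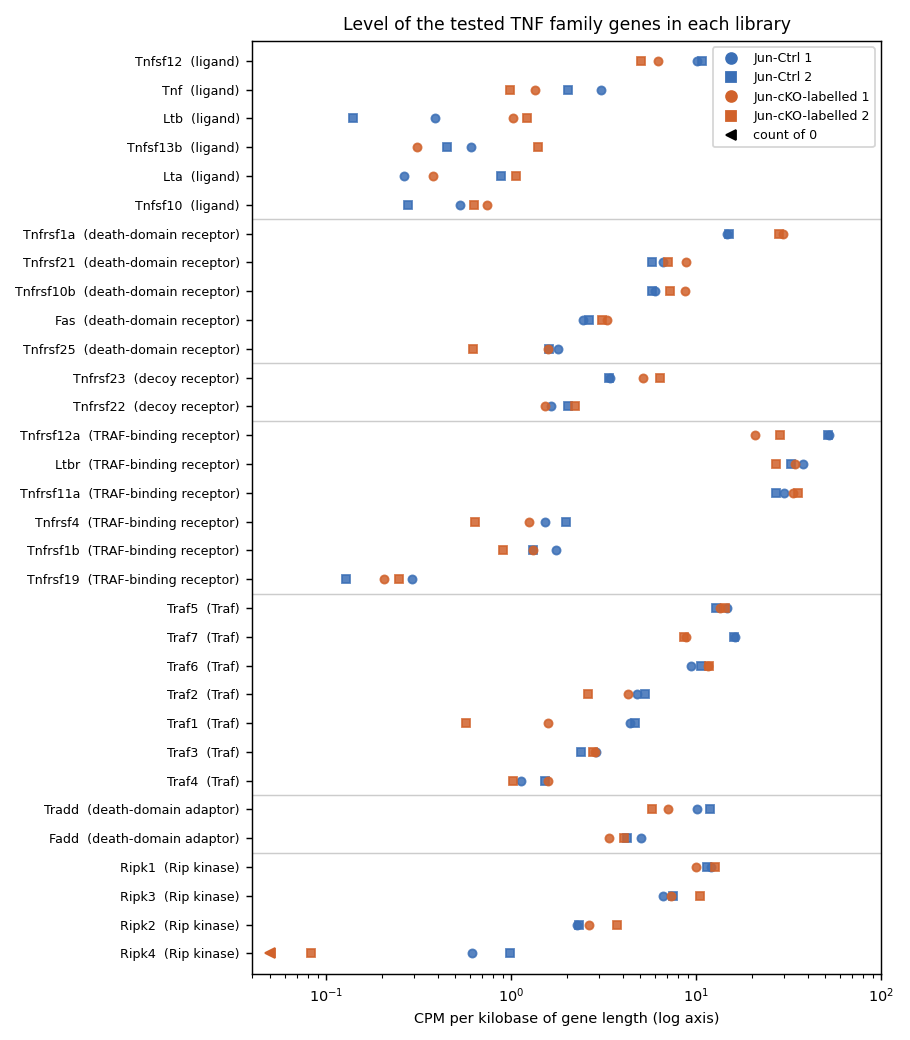
Level of each of the 32 tested genes in CPM per kilobase of gene length (log axis), with 1 point per library, grouped by role. Tnfrsf12a lies furthest right in Jun-Ctrl and, on average, behind Tnfrsf11a, Ltbr and Tnfrsf1a in Jun-cKO. The triangle marks the Jun-cKO-labelled library with 0 counts of Ripk4.

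The comparison of Jun-cKO-labelled with Jun-Ctrl libraries asks which genes differ in these cells when both copies of Jun are floxed. Of the 32 tested members, 12 (37.5%) passed an adjusted p of 0.05, against 41.5% of all 12656 tested genes, so the family was called about as often as other genes. Higher calls numbered 4 (12.5%, against 19.0% of all tested genes), namely Tnfrsf1a, Tnfrsf23, Tnfrsf10b and Ltb. Lower calls numbered 8 (25%, against 22.5%), namely Traf1, Tnfrsf12a, Traf7, Tnfsf12, Tradd, Tnf, Traf2 and Ripk4. The median log2 fold change was -0.0046 over the members that passed the filter and 0.0053 over all tested genes. Both Jun-cKO-labelled libraries lay above both Jun-Ctrl libraries for 10 of the 32 (35.4% of all tested genes did so) and below both for 12 (35.9%), so that 68.8% of the members and 71.3% of all tested genes had groups without overlap. The members called higher numbered 2 when Jun-Ctrl replicate 1 was left out, 2 when Jun-Ctrl replicate 2 was, and 2 in DESeq2. After GC correction the split was 6 higher and 6 lower. Over 12188 genes the log2 fold change and GC content had a Spearman's rho of -0.338, a description of genes that share the same 4 libraries.

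**Figure D2:**
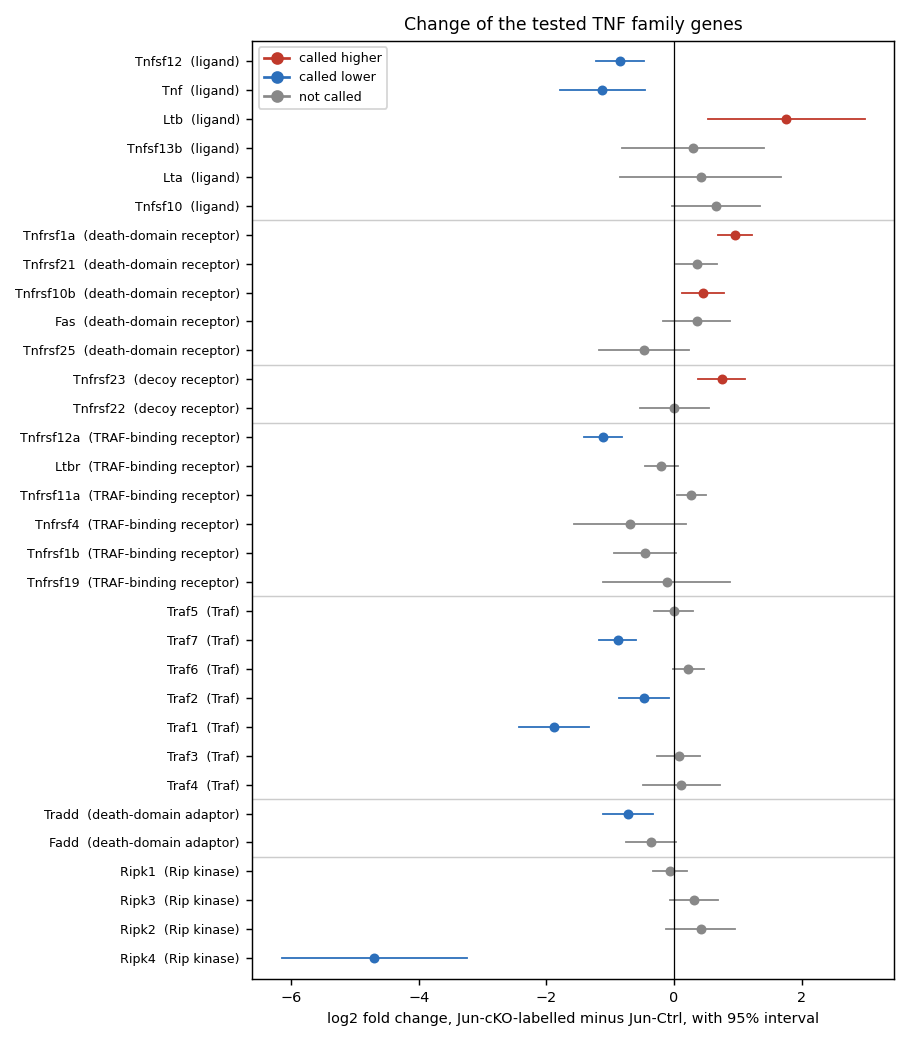
Change of each tested gene on the log2 scale, Jun-cKO-labelled minus Jun-Ctrl, with its 95% interval, coloured by call at an adjusted p of 0.05. The 4 higher calls are Ltb and 3 receptors, and the 3 Traf calls lie on the lower side.

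**Figure D3:**
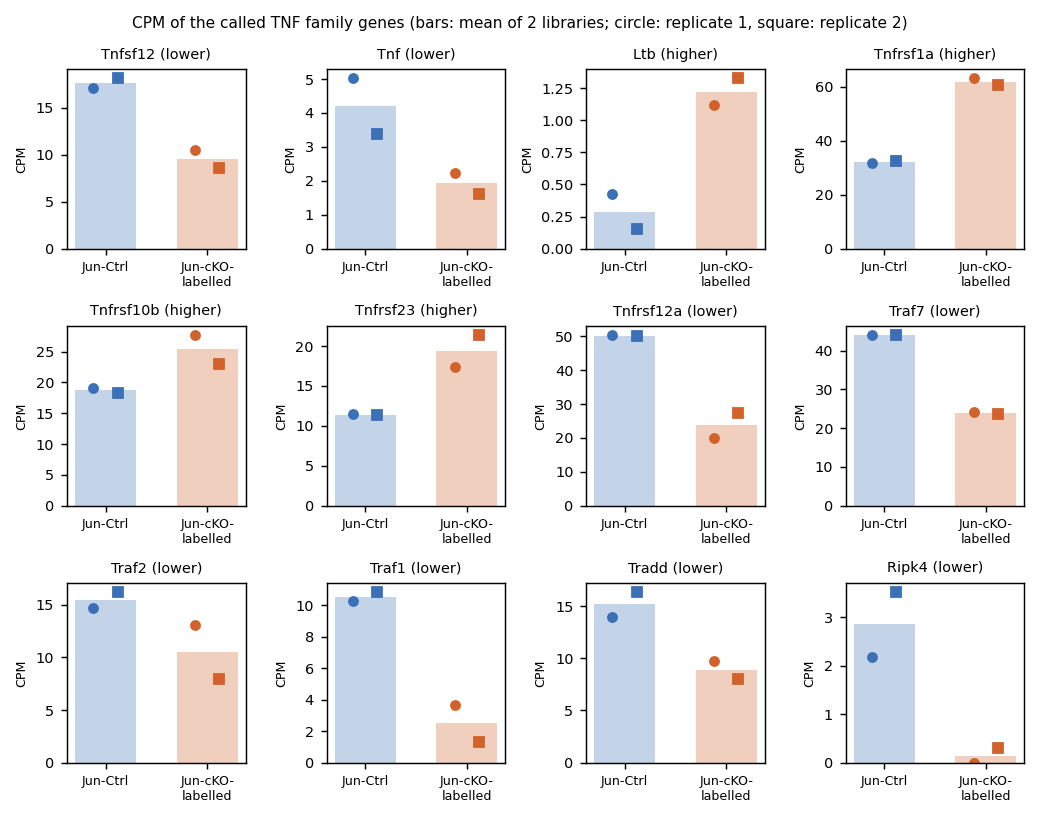
CPM of the 12 called genes, with 1 point per library, bars at the mean of the 2 libraries of a group and axes starting at 0. In each panel both Jun-cKO-labelled libraries lie on one side of both Jun-Ctrl libraries.

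Among the ligands, Tnfsf12 and Tnf were lower and Ltb was higher. Values below are those of Jun-Ctrl replicates 1 and 2, against those of Jun-cKO-labelled replicates 1 and 2, in that order. Tnfsf12 stood at 17.1 and 18.2 CPM in Jun-Ctrl against 10.5 and 8.56 CPM. The groups did not overlap, and the gene fell 1.81-fold (95% interval 1.39 to 2.35, adjusted p = 0.000271 by edgeR). Exons of the annotated gene Tnfsfm13 overlap it on the same strand, so reads of the pair could be mixed. Tnf, the founding cytokine of the family, stood at 5.03 and 3.37 CPM in Jun-Ctrl against 2.23 and 1.62 CPM. Again the Jun-cKO-labelled values were the lower ones, and Tnf fell 2.18-fold (95% interval 1.37 to 3.47, adjusted p = 0.00534). The call ended in DESeq2 (adjusted p = 0.0903) and on leaving out Jun-Ctrl replicate 1 (0.281), in a range of 0.00248 to 0.281 over 13 alternatives. Tnf is also made by myeloid cells. Of 14 tested myeloid markers 10 fell and 2 rose, with a summed level of 710 and 671 CPM in Jun-Ctrl against 511 and 493 CPM. Mrc1, which rose, made up 170 and 141 CPM of that sum in Jun-Ctrl against 246 and 244 CPM, so the sum understates the fall of the others. The leukocyte gene Ptprc stood at 8.49 and 7.96 against 3.604 and 2.95 CPM. The part of myeloid cells in the Tnf result was not tested.

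Ltb, which encodes the membrane anchor of the lymphotoxin heterotrimer, had 7 and 1 counts in Jun-Ctrl against 17 and 9 counts, or 0.425 and 0.153 against 1.11 and 1.33 CPM. The groups did not overlap, and the rise was 3.39-fold with a wide 95% interval of 1.44 to 7.97 (adjusted p = 0.0182 by edgeR). The call ended in DESeq2 (adjusted p = 0.163), when Jun-Ctrl replicate 2 (0.186) or Jun-cKO-labelled replicate 2 (0.059) was left out, in a range of 0.003502 to 0.186 over 11 alternatives. Without either replicate 1 it had too few counts to be tested. Lymphocytes are a known source of Ltb. The lymphocyte and natural killer markers, of which 1 rose and 1 fell among 5 tested, summed to 17.7 and 22.6 CPM in Jun-Ctrl against 35.5 and 41.2 CPM, and Gzma, at 0 in Jun-Ctrl, made up 21.5 and 22.4 CPM of the latter. Cd3e, Ms4a1 and Ncr1 were at 0 in every library, but other genes of the list had counts in each. Cd79b stood at 5.09 and 6.58 CPM in Jun-Ctrl against 4.72 and 6.79 CPM, and Cd2 at 4.003 and 5.97 against 4.32 and 7.09 CPM. Neither was called, nor was Klrb1c. Prf1, the gene that fell, stood at 5.03 and 7.497 against 3.15 and 2.66 CPM. The part of lymphocytes in the Ltb result was not tested.

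The other tested ligands were not called. Lta, which encodes the soluble lymphotoxin, stood at 0.364 and 1.22 CPM in Jun-Ctrl against 0.524 and 1.48 CPM, and Tnfsf13b, the B cell factor BAFF, at 1.03 and 0.765 against 0.524 and 2.36 CPM. Both had overlapping groups. Tnfsf10, which encodes the death ligand TRAIL, stood at 2.61 and 1.38 against 3.67 and 3.100 CPM, a difference of 0.66 on the log2 scale (SE 0.34, adjusted p = 0.119). Of the ligands too rare to test, Tnfsf14, which encodes LIGHT, had 8 and 7 counts in Jun-Ctrl against 0 and 0. With 3 counts over the group as a floor in place of 0, Tnfsf14 was 4.78-fold lower. Tnfsf15, which encodes TL1A, had 4 and 3 counts against 0 and 0, or 2.23-fold lower on the same floor. Without a filter Tnfsf14 was called lower, and the lower members then numbered 9. The floor allows for counting error in the 0 counts but not in the few Jun-Ctrl counts, so these folds are not lower bounds. Reads of amplified RNA are also not single molecules. The 7 remaining untested ligands, among them the Fas ligand gene Fasl and the RANK ligand gene Tnfsf11, had between 0 and 31 counts over all libraries.

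Of the 5 death-domain receptors, all tested, 2 rose and 0 fell (40% called, against 41.5% of all tested genes). Tnfrsf1a, which binds soluble TNF, stood at 31.8 and 32.6 CPM in Jun-Ctrl against 63.4 and 60.7 CPM. The groups lay far apart for their spread, and the gene rose 1.93-fold (95% interval 1.605 to 2.33, adjusted p = 1.24e-07). It was called in each of 14 alternatives, with log2 fold changes of 0.89 to 1.24. Tnfrsf1a lies on the plus strand of chromosome 6 (125349362 to 125362484, GRCm38), and Ltbr lies nearby on the minus strand (125306571 to 125313885).

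Tnfrsf10b, the TRAIL receptor that can trigger death, stood at 19.2 and 18.4 CPM in Jun-Ctrl against 27.7 and 23.03 CPM, and rose 1.36-fold (adjusted p = 0.0244). That call ended with library totals (adjusted p = 0.0525), in DESeq2 (0.111), when Jun-Ctrl replicate 1 (0.129), Jun-Ctrl replicate 2 (0.145) or Jun-cKO-labelled replicate 1 (0.249) was left out, in a range of 0.00653 to 0.249 over 14 alternatives. Tnfrsf21, which encodes death receptor 6, stood at 24.1 and 20.96 against 32.04 and 25.4 CPM, without overlap but short of the threshold (0.35 on the log2 scale, SE 0.16, adjusted p = 0.0702). It passed once Jun-cKO-labelled replicate 2 was left out (adjusted p = 0.0145) and after GC correction (0.0159), in a range of 0.0145 to 0.558. Fas, whose upstream stretch with the AP-1 letters is printed above, stood at 4.43 and 4.74 against 5.96 and 5.61 CPM. Its groups did not overlap, but the difference was not called (0.36 on the log2 scale, SE 0.26, adjusted p = 0.279). Tnfrsf25, the receptor for TL1A, stood at 3.396 and 3.06 against 3.01 and 1.18 CPM and was not called (adjusted p = 0.282), though it passed as lower without Jun-cKO-labelled replicate 1 (-1.46 on the log2 scale, adjusted p = 0.0332, in a range of 0.0332 to 0.922).

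Decoy receptors were represented by neighbouring TRAIL receptor genes on chromosome 7. Tnfrsf23 stood at 11.5 and 11.3 CPM in Jun-Ctrl against 17.4 and 21.4 CPM, and rose 1.67-fold (95% interval 1.298 to 2.16, adjusted p = 0.000945). Tnfrsf22 stood at 3.76 and 4.59 against 3.47 and 5.02 CPM, with overlapping groups and a 95% interval of the fold from 0.687 to 1.45. These genes and Tnfrsf26 are close copies, so reads they share could be split or dropped in counting, and an exon of E230032D23Rik on the other strand overlaps Tnfrsf23. Tnfrsf11b, which encodes the soluble decoy osteoprotegerin, had 1 and 4 counts in Jun-Ctrl against 0 and 0. With 3 counts as the floor it was 1.59-fold lower, and so few counts do not establish a fall.

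Of the 6 tested TRAF-binding receptors, 1 was called (16.7%, against 41.5% of all tested genes), namely Tnfrsf12a. It stood at 50.5 and 50.03 CPM in Jun-Ctrl against 20.1 and 27.5 CPM. Both Jun-cKO-labelled values were well below the near-equal controls, and the gene fell 2.16-fold (95% interval 1.76 to 2.67, adjusted p = 4.62e-08). Its log2 fold change ran from -1.32 to -0.73 over 14 alternatives, each with a call. The gene of its ligand, Tnfsf12, was also called lower. Ltbr stood at 79.1 and 68.5 against 71.6 and 56.7 CPM, with overlapping groups and no call (-0.20 on the log2 scale, SE 0.13, adjusted p = 0.214). After GC correction its difference turned to 0.29 (adjusted p = 0.0506), and it passed as lower without Jun-cKO-labelled replicate 1 (0.0296), in a range of 0.0296 to 0.829 over 14 alternatives.

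Tnfrsf11a, which encodes RANK, had more counts than any other member, with 7141 over the 4 libraries. It stood at 150.0 and 136 CPM in Jun-Ctrl against 168 and 178 CPM, 1.21-fold apart (adjusted p = 0.0547). Tnfrsf1b, the receptor that prefers membrane-bound TNF, stood at 8.61 and 6.43 against 6.42 and 4.43 CPM and was not called (-0.46 on the log2 scale, SE 0.24, adjusted p = 0.128), while it passed as lower without Jun-cKO-labelled replicate 1 (0.0358, in a range of 0.0358 to 0.7001). Tnfrsf4, the costimulatory receptor OX40, stood at 1.76 and 2.29 against 1.44 and 0.738 CPM and Tnfrsf19 at 1.39 and 0.612 against 0.983 and 1.18 CPM, and neither was called. Of the untested receptors, Tnfrsf9, the costimulatory receptor 4-1BB, had 2 and 1 counts in Jun-Ctrl against 11 and 3. The ratio of the pooled CPM was 4.88 with an exact 95% counting interval from 1.36 to 26.5. That interval leaves out variation between libraries, so it does not establish a rise. The 7 other untested receptors, among them Tnfrsf8 (3 and 2 counts against 0 and 0) and the LIGHT receptor gene Tnfrsf14 (1 and 0 against 0 and 0), had between 0 and 27 counts in all.

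Each of the 7 Traf genes was tested, and 3 fell (42.9%, against 22.5% of all tested genes). Traf1, an NF-kappaB-induced member that lacks the RING domain of most others, stood at 10.2 and 10.9 CPM in Jun-Ctrl against 3.67 and 1.33 CPM. The groups lay far apart, and Traf1 fell 3.69-fold (95% interval 2.52 to 5.403, adjusted p = 2.49e-07). Its Jun-cKO-labelled libraries also differed from each other, and the log2 fold change of -1.88 became -2.97 without Jun-cKO-labelled replicate 1 and -1.50 without replicate 2, both still called. Traf7, which has WD40 repeats in place of the TRAF domain, stood at 44.1 and 44.1 CPM in Jun-Ctrl against 24.1 and 23.6 CPM. Its values within each group were nearly equal, and it fell 1.84-fold (95% interval 1.51 to 2.26, adjusted p = 2.76e-06). Exons of Rab26 on the same strand and of Caskin1 on the other overlap it in the annotation.

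Traf2, the adaptor that brings the ubiquitin ligases Birc2 and Birc3 to TNF receptors, stood at 14.7 and 16.2 against 13.1 and 7.97 CPM and fell 1.39-fold, just inside the threshold (adjusted p = 0.0494). Its call ended in 6 of 14 alternatives, namely DESeq2 (adjusted p = 0.169), limma-voom (0.0535), GC correction (0.0735), and the fits that left out Jun-Ctrl replicate 1 (0.143), Jun-Ctrl replicate 2 (0.176) or Jun-cKO-labelled replicate 2 (0.432), in a range of 0.00109 to 0.432. Traf5 (30.9 and 27.1 against 28.2 and 30.1 CPM), Traf3 (20.6 and 17.1 against 20.2 and 19.9 CPM) and Traf4 (3.396 and 4.59 against 4.78 and 3.100 CPM) had overlapping groups. Traf6, the adaptor of RANK and of Toll-like and interleukin receptors, stood at 58.2 and 65.8 against 71.6 and 72.6 CPM and was not called (0.23 on the log2 scale, SE 0.12, adjusted p = 0.141).

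Of the death-domain adaptors, Tradd, which binds Tnfrsf1a, stood at 13.9 and 16.4 CPM in Jun-Ctrl against 9.76 and 7.97 CPM. It fell 1.65-fold (95% interval 1.25 to 2.17, adjusted p = 0.00265), a call that ended after GC correction (-0.37 on the log2 scale, adjusted p = 0.113, in a range of 0.00108 to 0.113 over 14 alternatives). The TNF receptor gene and this adaptor were therefore called in opposite directions, at 0.95 for Tnfrsf1a and -0.72 for Tradd on the log2 scale. Fadd, which links death receptors to caspase 8, stood at 14.4 and 12.1 against 9.698 and 11.7 CPM and was not called (-0.36 on the log2 scale, SE 0.20, adjusted p = 0.134). An antisense gene, Faddos, overlaps its exons.

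Among the Rip kinases, Ripk1, which acts at the TNF receptor, stood at 54.2 and 51.4 CPM in Jun-Ctrl against 45.1 and 56.99 CPM, with a 95% interval of the fold from 0.792 to 1.15. Ripk3, the necroptosis kinase, stood at 12.98 and 14.7 against 14.3 and 20.5 CPM and was not called (adjusted p = 0.186), while it passed as higher without Jun-cKO-labelled replicate 1 (0.0164) and after GC correction (0.0292), in a range of 0.0164 to 0.8004. Ripk2, which acts downstream of the NOD sensors of bacteria, stood at 4.31 and 4.44 against 4.98 and 7.09 CPM (adjusted p = 0.221). Ripk4, a kinase known from keratinocytes and other epithelia, had 36 and 23 counts in Jun-Ctrl against 0 and 2, or 2.18 and 3.52 against 0 and 0.295 CPM. The pooled CPM were 28.2-fold lower with an exact 95% counting interval from 7.48 to 239, which leaves out variation between libraries. In the edgeR fit Ripk4 fell 26.0-fold (95% interval 9.51 to 71.0, adjusted p = 7.93e-07). Its fitted log2 fold change of -4.70 became -3.12 without Jun-cKO-labelled replicate 1 and -8.09 without replicate 2, both called. Of 18 tested lung epithelial markers 17 fell, with a summed level of 1818 and 1922 CPM in Jun-Ctrl against 209.95 and 203 CPM, and the part of epithelial cells in the Ripk4 result was not tested.

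The rest of the pathway was described by 4 lists of other genes. The lists were chosen with earlier results of these data known, so their shares are descriptions and not independent support. Of 18 tested TNF-inducible endothelial genes, 12 fell (66.7%, against 22.5% of all tested genes) and 2 rose (11.1%, against 19.0%), with a median log2 fold change of -0.67 against 0.0053 over all tested genes. The monocyte chemokine gene Ccl7 stood at 42.3 and 40.1 CPM in Jun-Ctrl against 14.5 and 17.7 CPM, and fell 2.61-fold (adjusted p = 8.32e-10). The tissue factor gene F3, which starts coagulation, stood at 10.4 and 7.803 against 1.64 and 2.21 CPM and fell 5.08-fold (adjusted p = 5.91e-09). Ccl2 and Cxcl2, chemokine genes for monocytes and neutrophils, fell 1.901-fold and 1.63-fold. The adhesion molecule genes Icam1 and Vcam1 were not called (log2 fold changes of -0.20 and -0.20), and Sele had 0 counts in every library. Myeloid and mesenchymal cells express several of these genes, and beside the 10 of 14 myeloid markers, 8 of 12 tested mesenchymal and smooth muscle markers fell and 1, Postn, rose. That list summed to 519 and 484 CPM in Jun-Ctrl against 436 and 505 CPM, and without Postn to 336 and 338 CPM against 108 and 114 CPM. Of 18 tested lung epithelial markers, 17 also fell. Of 11 tested blood endothelial markers, 5 rose and 5 fell. Plvap, which fell, stood at 326 and 336 CPM in Jun-Ctrl against 183 and 134 CPM. Ednrb, which rose, stood at 296 and 286 against 545 and 565 CPM. The part of blood endothelial, myeloid, mesenchymal and epithelial cells in these falls was not tested. The lower genes of this list numbered 7 and the higher 0 when Jun-Ctrl replicate 1 was left out, 9 and 0 when replicate 2 of that group was, while GC correction left 10 and 0.

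In the receptor complex and NF-kappaB route, 6 of 31 tested genes rose and 5 fell, with a median of 0.062. The 35.5% called lay near the 41.5% of all tested genes. Map2k7, a kinase that activates JNK after TNF, stood at 19.6 and 26.9 CPM in Jun-Ctrl against 11.4 and 10.3 CPM, and fell 2.07-fold (adjusted p = 8.77e-06). Ikbkb, the IkappaB kinase, stood at 124 and 124 against 177 and 199.6 CPM and rose 1.52-fold (adjusted p = 4.28e-05). Mapk9, which encodes JNK2, rose 1.37-fold, a call that ended without Jun-Ctrl replicate 2 (adjusted p = 0.0587). Rela, the NF-kappaB subunit p65, stood at 111 and 133 against 84.3 and 98.9 CPM and fell 1.33-fold (adjusted p = 0.00537). That call ended when Jun-Ctrl replicate 2 (0.157) or Jun-cKO-labelled replicate 1 (0.0813) was left out, and the difference turned to 0.055 on the log2 scale after GC correction (0.7401), in a range of 0.00102 to 0.7401. The list held 7 higher and 1 lower with that correction, 3 and 3 when Jun-Ctrl replicate 1 was left out, 1 and 1 for Jun-Ctrl replicate 2, and 4 and 2 for Jun-cKO-labelled replicate 1.

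In the death execution list, 4 of 11 tested genes rose and 0 fell, with a median of 0.18. The 36.4% called lay near the 41.5% of all tested genes, of which 19.0% were called higher. GC correction kept 4 higher and 0 lower, but the list median became 0.031, near the 0.025 of all genes tested in that fit. Casp8, the caspase that FADD recruits, stood at 33.3 and 31.98 CPM in Jun-Ctrl against 50.5 and 48.7 CPM and rose 1.52-fold (adjusted p = 0.000376). Mlkl, which forms the necroptotic pore, rose 1.86-fold, and Zbp1, a nucleic acid sensor that engages Ripk3, rose 1.62-fold (adjusted p = 0.0341). The Mlkl call ended without Jun-Ctrl replicate 2 (adjusted p = 0.0548), where 2 genes of the list were called, and the Zbp1 call ended in 5 of 14 alternatives (range 0.0238 to 0.242), among them leaving out Jun-Ctrl replicate 1, Jun-Ctrl replicate 2 or Jun-cKO-labelled replicate 2.

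Of 7 tested family members under other names, 2 rose and 0 fell, with a median of -0.14. The 28.6% called compares with 41.5% of all tested genes. Eda2r, the receptor for the ectodysplasin isoform A2, stood at 1.76 and 2.29 CPM in Jun-Ctrl against 6.49 and 5.91 CPM and rose 3.21-fold (adjusted p = 2.05e-05). Ngfr, the neurotrophin receptor p75, stood at 1.88 and 2.91 against 4.85 and 2.66 CPM and was called higher although its groups overlapped (adjusted p = 0.0436), a call that ended in 6 of 13 alternatives (range 0.003402 to 0.741), among them leaving out either Jun-Ctrl replicate or Jun-cKO-labelled replicate 1, each of which left 1 gene of the list called as higher. Cd40, a receptor known for its part in antigen presentation and in endothelial activation, stood at 62.9 and 65.8 against 59.4 and 57.3 CPM and was not called (adjusted p = 0.396).

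**Figure D4:**
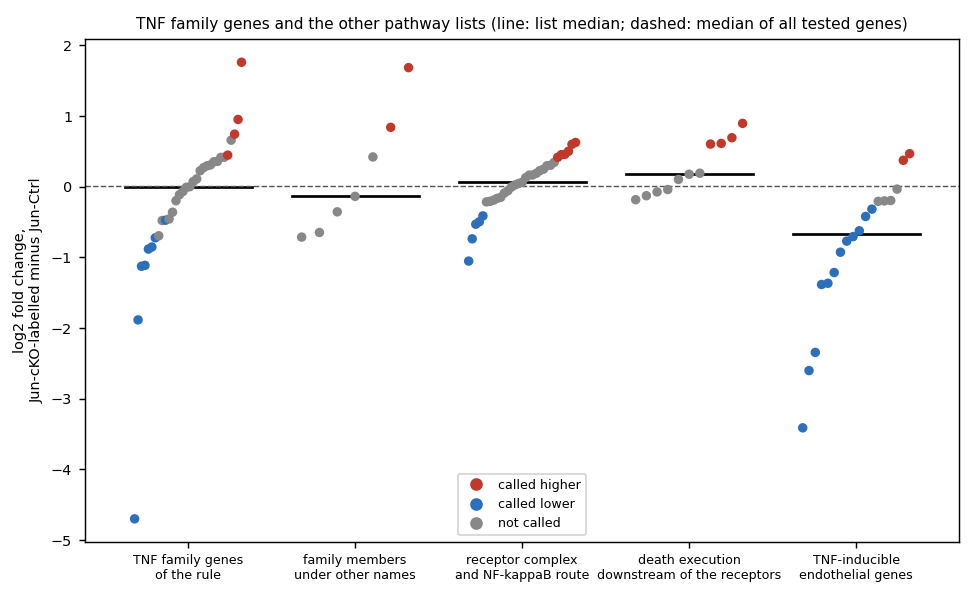
Change on the log2 scale, Jun-cKO-labelled minus Jun-Ctrl, of the tested members of the family and of each of the 4 pathway lists, 1 point per gene, with the list median as a bar and the median of all tested genes as a dashed line. The TNF-inducible genes have the lowest median, -0.67, and the other medians lie between -0.14 and 0.18. The lists were chosen with earlier results of these data known.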

How the data were processed

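The authors deposited raw read counts per gene, as whole numbers, per the file headers and values, with a gene length in bases used here for levels per kilobase. The submitters' processing notes list, with no roles, the aligner STAR (2.7.2a), the counter featureCounts (1.6.4), edgeR (3.28.1) and mm10. For annotation and strand setting, neither was given in the sources used here, so reads of overlapping or antisense genes cannot be told apart. Per the series' design text, cells of a group were mixed before RNA amplification.

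Columns were matched to libraries by title. The whole count table was fitted with edgeR 4.0.16 under R 4.3.3 (filterByExpr, TMM, glmQLFit and glmQLFTest, no block). P-values were adjusted by Benjamini-Hochberg over 12656 tested genes and called under 0.05. SE was the log2 fold change over the square root of F. The 14 alternatives were RLE and upper-quartile scaling, library totals, DESeq2 1.42.0, limma-voom (limma 3.58.1), testing every gene with a count, requiring 50 counts in 2 libraries, a replicate block, each of the 4 libraries left out, a loess GC correction (GENCODE M21 transcripts, for 96.3% of tested genes) and removal of cell marker genes. The members and lists were chosen with earlier results of these data known. Values per library are given for called members and the most abundant of each role, and at most 4 called genes with the smallest p are named per pathway list. Other members and Icam1, Vcam1, Sele and Cd40 were added after their values were seen. A gene that this rule would name is not reported here.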

Additional observations from a re-analysis of the deposited data

How the results depend on the processing

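The 12 called members kept their direction in every alternative that could be fitted, and 146 of 163 such fits kept the call while 17 lost it. The members called higher numbered 4, and 2 in DESeq2, and ranged from 2 to 4 with 1 library left out. Those called lower numbered 8, and ranged from 6 to 11 with 1 library left out. Pathway list genes called higher numbered 14, and 8 in DESeq2, and ranged from 4 to 11 with 1 library left out. Those called lower numbered 17, and 11 after GC correction, and ranged from 10 to 16 with 1 library left out. A library left alone in its group was assumed to vary like the other group. The log2 fold change of Jun went from 0.14 to 0.41 with GC correction and ranged from 0.060 to 0.22 with 1 library left out. With the replicate block the family had 5 higher and 8 lower calls, the gain being Tnfrsf11a (adjusted p = 0.0499, in a range of 0.0499 to 0.396). The labels do not say that a replicate mark pairs libraries, and the differences between replicates 1 and 2 correlated at 0.073 between groups over 12656 genes.

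Direction turned for 10 genes, of which Rela was called; values are log2 fold changes. Among uncalled genes Tnfrsf22 was at 0.011 in DESeq2 and 0.0066 without a filter, Tnfrsf19 at 0.023 in DESeq2, Tnfsf13b at -0.051 in limma-voom and Ltbr at 0.29 after GC correction. The called gene Rela turned from -0.41 to 0.055 after GC correction. With 1 library left out, Tnfrsf22 ranged from -0.21 to 0.31, Tnfsf13b from -0.83 to 1.31, Traf5 from -0.11 to 0.091, Traf4 from -0.30 to 0.34, Ripk1 from -0.22 to 0.10, Lta from -0.26 to 1.20, and Traf3 from -0.054 to 0.22. The cause was not tested. Depth limits the 18 untested members, since 3 counts equal 0.182 to 0.459 CPM per library. All genes called numbered 5251, and 2992 without Jun-Ctrl replicate 1, 3425 without Jun-Ctrl replicate 2 and 3591 in DESeq2.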
